A study of Mus musculus with 22 samples.

Results

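The comparison set 6 T-type astrocytes against 6 S-type astrocytes over the 7378 gene symbols with at least 1 read in at least 10 of these 12 cells, out of 17479 symbols with a read in any of the 22 cells of the series. Each cell was 1 astrocyte of a primary culture made from the cortex of a newborn C57BL/6 mouse, and its free calcium had been recorded with the dye Fluo-4 while EtOH was washed over it. A cell was called S-type when calcium climbed slowly and decayed slowly, and T-type when it rose in a sharp transient. The same cell was then drawn into a micropipette and its RNA amplified and sequenced. Both types shared the strain, the culture with cytosine arabinoside against dividing cells, the dye and the EtOH exposure, and the labels separate them only by the recorded calcium signal. The 5 M-type cells (a mixture of signals) and the 5 NR cells (no response) are given beside some genes for reference. The labels do not name the animal, the culture or the collection time of a cell. Each type therefore counts as 1 sample of 6 cells, no test between types was possible, and the values below describe these 12 cells.

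Astrocyte calcium signals usually start at receptors coupled to Gq, which activate phospholipase C and open the inositol trisphosphate receptors of the endoplasmic reticulum (ER). SERCA pumps refill the ER, STIM and ORAI proteins admit calcium when it is empty, plasma membrane pumps and sodium-calcium exchangers remove calcium from the cell, and mitochondria take up part of the load. Cultured newborn astrocytes can still divide, and a dividing cell carries transcripts of DNA replication or mitosis that a resting neighbour lacks.

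The S-type cells had between 12229280 and 16254761 exonic reads (median 15156344.5), and between 9768 and 11914 symbols with a read. The T-type cells ran from 2937786 to 19279519 reads (median 14059810.5) and from 6319 to 10614 symbols. The T-type cells J162_16 and J163_18 had the fewest symbols, 6319 and 7442, and size factors of 0.276 and 0.183 against 0.923 to 1.64 in S-type cells. A size factor is the amount by which the counts of a cell are divided to make cells comparable. In J162_16 the 100 most-read genes took 47.1% of the reads, against 20.3% to 24% in the S-type cells. Of the 7378 genes, 2951 lacked a read in T-type cells only. Among all symbols, 272 had a read in every S-type cell and in at most 2 T-type cells, and 0 showed the opposite. At this depth the lack of a read in a T-type cell shows only that the transcript was not detected. A smaller astrocyte and less RNA captured from it cannot be told apart in these data.

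By the mean over the 6 cells of a type, 1947 genes (26.4% of those compared) were at least 2-fold higher in T-type cells and 1475 genes (20.0%) at least 2-fold lower. The median log2 ratio of T-type to S-type over all compared genes was 0.20. This split depended on how the level of a type was set. With the median over the cells, 1042 genes were at least 2-fold higher and 2711 lower, and the median ratio was -0.40. With the mean of the log2 values, the counts were 757 and 3478, and the median was -0.88. With reads per 1000000 exonic reads of the cell (CPM) in place of size factors, they were 1010 and 1956 and the median ratio was -0.21, so that 34.1% of the genes past 2-fold were higher in T-type cells, against 56.9% with size factors. In 56.6% of the genes a single T-type cell held more than 50% of the summed level of its type, against 24.1% for S-type cells. J162_16 was the highest T-type cell for 808 of the 1947 genes that were higher. Of the 76 named genes at least 2-fold higher, 36 were under 2-fold when 1 cell was left out, and for 28 of them that cell was J162_16. Of the 39 at least 2-fold lower, 1 was. Many of the lower genes were named for a large ratio on these cells, and many of the higher ones for a high level. These counts therefore do not compare the directions. The same gene was at least 2-fold higher by the mean and by the median in 795 cases, and at least 2-fold lower by both in 1274. The list medians below are therefore read against the median of all genes under the same definition. Counts of list members past 2-fold are likewise read against the 26.4% higher and 20.0% lower of all compared genes.

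A complete separation of the cells was rare. All 6 T-type cells lay above all 6 S-type cells for 16 genes (0.217%), and all 6 lay below them for 34 genes (0.461%). The 16 genes depended on the scaling: 7 of them stayed apart with TMM factors and 2 with CPM, and Hsp90ab1 alone stayed apart under every scaling tried. Of the 34 genes, 24 stayed apart under every scaling. A T-type level near 0 changes little with the scaling, so these counts do not compare the directions.

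Ribosomal protein genes were mostly higher in T-type cells. These genes encode the structural proteins of the 40S and 60S subunits, and they are usually expressed together. Of 79 in the table, 77 were compared, 76 had a ratio above 0, 48 were at least 2-fold higher in T-type cells and 0 at least 2-fold lower. Over all 7378 genes, 4135 had a ratio above 0. The median log2 ratio was 1.14, which is 0.93 above that of all genes. The ribosomal protein genes are abundant and short. Nearer to them are the 332 compared genes both in the highest of 5 level bins and in the shortest of 5 length bins. The median of those 332 genes was 0.889. Ribosomal protein genes were not taken out of that bin, so it is not an independent reference. For the ribosomal protein genes the median was 1.03 with the median over the cells and 1.04 with the mean of the log2 values. CPM scaling gave 0.60, which is 0.82 above all genes on that scale, and 1.07 was the value without J162_16 and J163_18. Leaving out each cell in turn gave medians between 0.95 and 1.32. The highest member was Rps20 of the small subunit, at 2.50.

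Ribosomal protein genes took 3.11% to 7.79% of the reads of a T-type cell (median 4.87%) and 2.49% to 5.16% of those of an S-type cell (median 3.56%), so the types overlapped on that measure. The highest T-type share was in J165_23 and the lowest in J163_18. M-type cells ran from 2.62% to 8.02% and NR cells from 1.7% to 5.4%, and the upper M-type value was above every T-type cell.

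**Figure D1:**
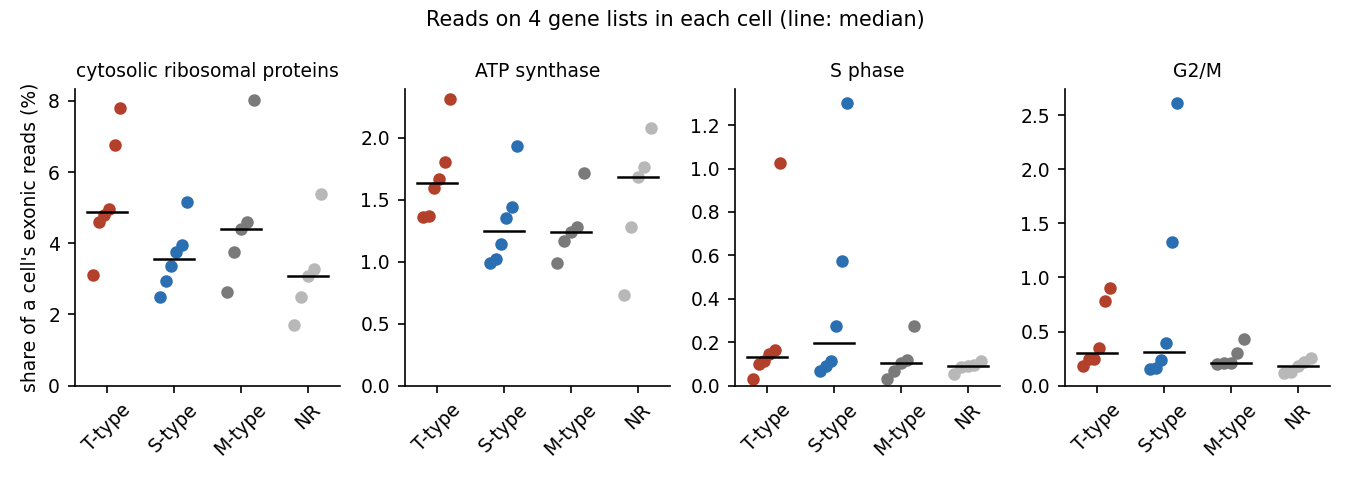
Share of a cell's exonic reads, in percent, on the cytosolic ribosomal proteins, the ATP synthase subunits, the S phase list and the G2/M list, with 1 point per cell and a line at the median of 6 T-type, 6 S-type, 5 M-type and 5 NR cells. The ribosomal shares of T-type cells lie between 3.11% and 7.79% and overlap those of S-type cells, and the S-type cell J150_3 stands alone on the G2/M list at 2.62%.

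The T-type and S-type cells did not overlap for 6 ribosomal protein genes: Rps20, Rpl24, Rpl13a, Rpl36a, Rps7 and Rps15a. The Rps20 level (normalized read count) was lowest at 10985, median 13723 and highest at 99761 in T-type cells, and 2303, 4052 and 10028 in S-type cells, and triplets of levels below follow this order of lowest, median and highest cell. J162_16 held 57.6% of the T-type level, and without it the log2 ratio went from 2.50 to 1.52. For Rpl24, a protein of the large subunit, T-type cells had 7177, 7979 and 19158 and S-type cells 1053, 1582 and 6530. The log2 ratio of Rpl24 was 1.89, with a range of 1.61 to 2.36 when each cell was left out. M-type and NR cells averaged 3023 and 2091, nearer the S-type values.

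The ribosomal protein genes of highest mean level did not all separate. Rps4x had 13699, 20129 and 316113 in T-type cells and 18994, 26937 and 40642 in S-type cells, and its log2 ratio of 1.31 became -0.34 without J162_16. Rps23 stood at 1.85 with all cells and at 0.16 without J162_16. Rpl7 was near equal at 0.31. Rpl4 was more even, with 8825, 25695 and 87370 in T-type and 5848, 8688 and 21389 in S-type cells, a log2 ratio of 1.5 and a lowest leave-one-out value of 0.98. Reads of ribosomal protein genes can be lost to the processed pseudogenes of this family, since only uniquely aligned reads were counted, so single members are uncertain.

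Elongation factors were likewise higher by the mean. All 7 compared members were above 0, 5 were at least 2-fold higher and the median log2 ratio was 1.36. Eef1a1, which brings aminoacyl-tRNA to the ribosome, had 21873, 76324 and 148934 in T-type cells and 13114, 35252 and 52307 in S-type cells, a log2 ratio of 1.36. Eef2, the translocation factor, stood at 1.60 and Eef1b2, which exchanges the nucleotide on Eef1a1, at 1.64. Tpt1, kept in this list though not itself an elongation factor, stood at 1.59. Each of the 4 stayed at 1.00 or above when any cell was left out.

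Initiation factors were less uniform, with a median of 0.68. Of 46 compared members, 17 were at least 2-fold higher (37.0%) and 3 at least 2-fold lower (6.52%), against 26.4% and 20.0% of all compared genes. Eif2s2, the beta subunit of the factor that delivers initiator tRNA, had a log2 ratio of 2.78 and Eif5b, which joins the subunits, 2.71. Eif4g2 and Eif5 lay at -0.35 and -0.45. Both high ratios leaned on J162_16, the source of 72.6% of the T-type Eif2s2 and 65% of the T-type Eif5b. Mitochondrial ribosomal proteins had a median of 0.62 with 26 of 73 at least 2-fold higher and 10 at least 2-fold lower. Mrpl20 was high across cells, with 1842, 4591 and 19345 in T-type and 326, 1411 and 2629 in S-type cells and a log2 ratio of 2.50. Mrpl9 at 3.63 rested on J162_16, with 96.2% of the T-type sum in it, and without that cell the ratio was -0.82. Mrps6 stood at 1.00 and Mrpl51 at -0.31.

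Folding machinery of the cytosol was also higher in T-type cells by the mean. Of 13 compared subunits of the chaperonin TRiC and of prefoldin, which fold actin and tubulin, 8 were at least 2-fold higher and 1 at least 2-fold lower, with a median of 1.2 (0.67 with the median over the cells). Of 15 heat shock chaperones, 7 were at least 2-fold higher and 1 lower, with a median of 0.74. Hsp90ab1, the constitutive cytosolic HSP90, separated the types: T-type cells had 21379, 59567 and 154334, and S-type cells 8601, 12267 and 17387. Its log2 ratio was 2.48 (counting interval 2.47 to 2.49), and leaving out single cells gave 2.10 to 2.67. M-type and NR cells averaged 13174 and 15999, close to the S-type level.

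The other abundant chaperones overlapped between types. Hsp90aa1, the inducible HSP90, had 16773, 33664 and 169591 in T-type and 11214, 21661 and 49173 in S-type cells, a log2 ratio of 1.03 that became 0.26 without J162_16. Hspa8, the constitutive HSP70, went from 1.88 to 0.61 without that cell, and Ptges3, the HSP90 cochaperone p23, from 3.15 to 0.42. Of the chaperonin subunits, Cct2 had 4987, 18097 and 30311 in T-type cells and 5348, 6852 and 18308 in S-type cells, with a log2 ratio of 1.03. Cct5 stood at 1.31, and Cct8 at 1.84 but at 0.47 without J162_16. Cct4 reached 3.61 through J162_16 alone, with 93.3% of the T-type sum in it, and the ratio without that cell was -0.02. Chaperones of the ER did not share this pattern: 1 of 14 was at least 2-fold higher, 3 were at least 2-fold lower and the median was -0.02.

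Nuclear-encoded subunits of oxidative phosphorylation lay mostly above 0. The mitochondrially encoded subunits were not analysed here. All 18 compared ATP synthase genes had a ratio above 0, 9 were at least 2-fold higher and the median was 0.97 (0.66 with the median over the cells). Complexes II to IV had 8 of 26 at least 2-fold higher (30.8%), 0 lower and a median of 0.76, and complex I had 10 of 36 at least 2-fold higher (27.8%), 0 lower and a median of 0.59. Both shares at least 2-fold higher were near the 26.4% of all compared genes. ATP synthase genes took 1.36% to 2.32% of the reads of a T-type cell and 0.991% to 1.93% of those of an S-type cell. NR cells reached 2.08%, above 5 of the 6 T-type cells.

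Atp5b, the catalytic beta subunit, was the most even abundant member, with 35029, 43690 and 57684 in T-type cells and 14202, 22398 and 43580 in S-type cells, a log2 ratio of 0.89 and a leave-one-out range of 0.77 to 1.13. Atp5a1, the alpha subunit, reached 2.85 with 85% of the T-type level in J162_16 and 0.38 without it. Atp5g3 stood at 0.69, and Atp5c1 at 0.58 with -0.011 without J162_16. In complex IV, Cox6c had 10263, 19543 and 225194 in T-type and 5255, 13301 and 25626 in S-type cells, a log2 ratio of 2.14. Cox7c stood at 1.32 (0.75 without J162_16) and Cox5a at 1.13 (0.67 without J161_9). Sdha, the flavoprotein of complex II, stood at 2.12, and at 0.01 without J162_16. The abundant complex I genes Ndufc2, Ndufb6, Ndufb3 and Ndufa1 stood at 0.20, 0.78, 0.49 and -0.23, all under 2-fold.

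The study's text names 35 genes of mitochondrial function on this comparison, of which 24 could be compared. That list was picked on these cells, so its split of 16 at least 2-fold higher and 8 at least 2-fold lower is no independent evidence. The higher ones were Aldh2, Ndufb4, Ndufs8, Sdhc, Cox6c, Cox7b, Atp5f1, Timm10b, Timm17a, Mrpl52, Mrpl13, Mrpl20, Rpl35a, Immp1l, Hsp90ab1 and Ptpmt1, with log2 ratios from 1.67 (Rpl35a) to 3.07 (Mrpl13). Without J162_16, Ndufs8 went from 2.59 to 0.67 and Timm17a from 2.56 to 0.97. The lower ones were Timm44, Mrpl1, Secisbp2, Trmt61b, Acad8, Tango2, Cerk and Mboat7, from -5.07 (Mrpl1) to -3.13 (Acad8). Aldh2, the mitochondrial enzyme that clears acetaldehyde, had 152, 708 and 2100 in T-type cells and 50.9, 135 and 307 in S-type cells, so the types overlapped. Its log2 ratio was 2.42 with a leave-one-out range of 1.88 to 2.75, and NR cells averaged 650. Atp5f1, a peripheral stalk subunit of ATP synthase, overlapped too, with 3351, 15485 and 31985 against 2178, 3679 and 8390. Of the lower genes, Mboat7, a lysophospholipid acyltransferase, had cells that did not overlap, with 259, 765 and 2429 in S-type and 3.63, 36.2 and 229 in T-type cells.

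Of the genes of EtOH and acetaldehyde oxidation, 9 of 14 were compared, 4 were at least 2-fold higher and 2 at least 2-fold lower, with a median of 0.82 that became -0.47 with the median over the cells. Adh5, the ubiquitous class III alcohol dehydrogenase, had 333, 4493 and 14647 in T-type and 695, 1486 and 2478 in S-type cells, a log2 ratio of 2.10. Aldh1a1, a cytosolic aldehyde dehydrogenase, varied widely within both types, with 1.82, 1088 and 19748 in T-type cells against 5.19, 1503 and 10113 in S-type cells, and NR cells averaged 22920. Its ratio of 1.13 was 0.15 without J166_25 and -0.47 with the median over the cells. Aldh7a1 and Aldh3a2 stood at 0.18 and -0.56. Antioxidant, metallothionein and ferritin genes were above 0 in 23 of 25 cases with a median of 0.87, 10 of them at least 2-fold higher and 1 lower. Fth1, Prdx6, Prdx1 and Txn1 stood at 1.19, 1.36, 1.00 and 2.08, and without J162_16 at 0.38, 0.46, 0.046 and 0.56. Without J162_16 and J163_18 Prdx1 was at -0.02.

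The leading genes on the T-type side, taken by ratio among the separated genes, encode proteins of varied function, and 9 of them are described. They are all protein-coding on GRCm38. Cotl1 (chr8:119809222-119840544), which binds actin filaments, had 2071, 3250 and 20791 against 574, 909 and 2024 and a log2 ratio of 2.50. Its lowest T-type cell lay just above its highest S-type cell.

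Adrm1 (chr2:180171485-180176286), the ubiquitin receptor of the proteasome, had 90.1, 200 and 471 in T-type cells and 27.5, 48.3 and 69.8 in S-type cells, a log2 ratio of 2.44 with a counting interval of 2.27 to 2.62. The 35 proteasome subunits compared had a median of 0.12. Utp6 (chr11:79932321-79962390), a factor of small-subunit ribosome assembly, was the gene of this group held most evenly by the T-type cells, at 1331, 1699 and 2679 against 107, 241 and 1221. Its highest S-type cell, J153_6, held 51.3% of the S-type level, and the log2 ratio of 2.18 was 2.96 without it.

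Arf4 (chr14:26638074-26665084), a small GTPase of the Golgi, had 3578, 4500 and 14652 against 1080, 1259 and 1995 and a log2 ratio of 2.08. Lxn (chr3:67457998-67463926), a carboxypeptidase inhibitor, had 7542, 10124 and 32560 against 2252, 3483 and 6142 and a log2 ratio of 1.86, and M-type cells averaged 8678. Idh3b (chr2:130279309-130284547), a subunit of the mitochondrial isocitrate dehydrogenase, had 1851, 2764 and 9977 against 140, 1150 and 1807, also at 1.86, and NR cells averaged 3238. Hsp90ab1 (chr17:45567775-45573271), Rps20 (chr4:3831334-3835665) and Rpl24 (chr16:55966275-55971435) are the others described. Arf4, Lxn and Idh3b each overlap a protein-coding gene on the opposite strand, and Rpl24 a transcript on its own strand. The use of strand in the counting is not given in the sources used here, so reads of such pairs may not be separated. For these 9 genes, leaving out any cell kept the log2 ratio between 1.29 and 2.96. They were chosen on these cells for separation and ratio, so this range is no independent support.

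**Figure D2:**
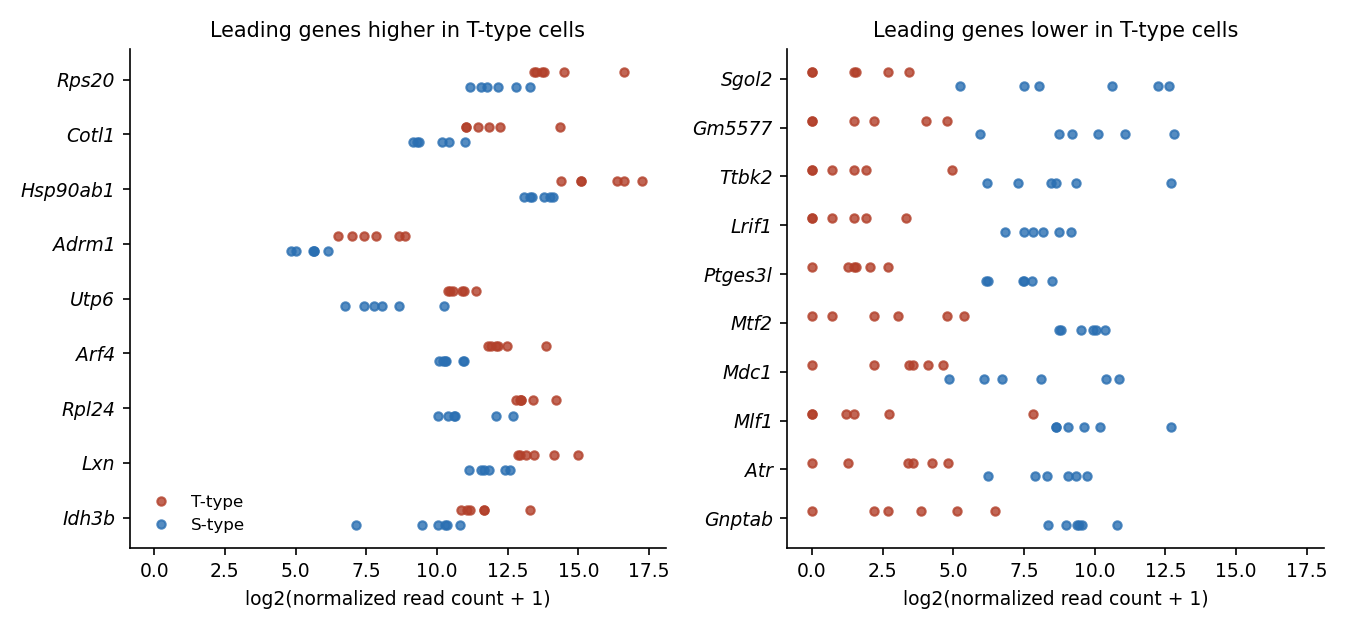
Level of 9 leading genes higher and 10 lower in T-type cells, in each of the 6 T-type and 6 S-type cells, as log2 of the normalized read count plus 1, with 1 point per cell. On the left all T-type points lie above all S-type points of the same gene, often by a narrow gap, and on the right all lie below, with several T-type cells at 0.

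The leading genes on the S-type side differed by far more, and in T-type cells most were near the limit of detection. Sgol2 (named Sgo2a in RefSeq, chr1:57985340-58026277) encodes shugoshin 2, which protects the cohesion of sister centromeres. It had 36.5, 914 and 6380 in S-type cells and 0, 1.87 and 9.85 in T-type cells, with 14379 reads over the S-type and 12 over the T-type cells. Its log2 ratio was -9.45 with a counting interval of -10.4 to -8.64. NR cells averaged 15.5 and M-type cells 170.

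Mdc1 (chr17:35841515-35859670) and Atr (chr9:95857597-95951781) act in the DNA damage checkpoint, the former as a scaffold at breaks and the latter as a kinase at stalled forks. Mdc1 had 28, 190 and 1840 in S-type and 0, 10.4 and 23.7 in T-type cells, a log2 ratio of -5.82. Atr had 73.7, 426 and 840 in S-type and 0, 10.3 and 27.3 in T-type cells, a log2 ratio of -5.29. NR cells averaged 234 for Mdc1 and 82.3 for Atr.

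Mtf2 (chr5:108065674-108109004), which brings the PRC2 methyltransferase to CpG islands, was the most even of these genes among the S-type cells, at 424, 853 and 1309 against 0, 5.46 and 40.4. Its log2 ratio was -5.97 and ranged from -6.75 to -5.71 when each cell was left out. NR cells averaged 1275. Lrif1 (chr3:106684987-106736577), a partner of HP1 proteins in heterochromatin, had 112, 255 and 570 against 0, 1.23 and 9.07, a log2 ratio of -6.97. Ttbk2 (chr2:120732816-120850604), the kinase that starts cilium growth at the basal body, had 72.8, 371 and 6635 against 0, 1.24 and 30.1. Its log2 ratio of -7.87 was -5.78 without J151_5, which held 80.4% of the S-type level.

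Gnptab (chr10:88379132-88447329), which makes the mannose 6-phosphate tag of lysosomal enzymes, had 322, 676 and 1747 against 0, 9.53 and 87.7, a log2 ratio of -5.02. Mlf1 (chr3:67374097-67400003) stood at -5.41, with 393, 658 and 6718 against 0, 1.56 and 226, and J166_25 held 96.3% of its T-type level. Ptges3l (chr11:101418812-101425333) had 69.8, 177 and 354 against 0, 1.88 and 5.45, a log2 ratio of -6.27. Gm5577 (chr6:87980883-88005471), annotated as an antisense RNA that overlaps Rab7 and H1fx, stood at -7.91, and its reads may belong to those partners. Ttbk2 and Ptges3l overlap a gene on their own strand, and Mtf2, Mlf1, Atr and Gnptab overlap one on the opposite strand. All 10 genes stayed apart under each of the 4 other scalings, and leaving out any cell kept their log2 ratios between -10.3 and -4.06. They were chosen on these cells for separation and ratio, and a level near 0 changes little with the scaling. Neither result is therefore independent support.

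Among the other separated genes of the S-type side, Nfyb, which the study's text names, encodes a subunit of the CCAAT-binding factor NF-Y. It had 221, 868 and 9432 in S-type cells and 0, 68.4 and 216 in T-type cells, a log2 ratio of -4.70. Npc1 and Cep250 were chosen after their values were seen. Npc1, the cholesterol exporter of the lysosome, had 514, 790 and 1937 against 0, 25.1 and 235, a log2 ratio of -3.96. Cep250, a centrosome linker, had 82.3, 167 and 1323 against 0, 3.64 and 46.8, a log2 ratio of -4.60.

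Cell-cycle transcripts were lower in T-type cells by every definition of the level with all 12 cells, and the direction turned when the S-type cells J150_3 and J151_5 were left out. Of 54 genes of the G2/M list, which mark cells about to divide, 24 were compared, 12 were at least 2-fold lower and 3 at least 2-fold higher in T-type cells, and the median was -1.09. Of 43 S phase genes, 23 were compared, 9 were lower and 4 higher by that measure, and the median was -0.74. The highest S-type cell was J150_3 or J151_5 for 22 of the 24 G2/M genes and 20 of the 23 S phase genes. J150_3 gave 2.62% of its reads to the G2/M list and J151_5 gave 1.3% to the S phase list. Without both cells the medians were 1.17 and 1.19, with 18 of 24 and 17 of 23 members above 0. Those cells have the highest S-type shares on both lists, and every T-type cell was kept. Leaving them out therefore raises the ratios by that choice, and the turn shows only how far the direction rests on them. On the T-type side, J165_23 gave 1.03% of its own reads to the S phase list, and without that cell the S phase median was -2.83.

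Promoters of mitotic genes are known for a pair of short elements, the CHR element with the letters TTTGAA and the CCAAT box. In RefSeq windows of GRCm38.p6 that run from 250 bases before to 50 bases after a gene's start, TTTGAA on either strand was found for 33 of the 46 G2/M genes with a window (71.7%) and for 20.2% of 27025 genes. CCAAT on either strand was found for 35 of 46 (76.1%) and for 41.1% of all genes. For the S phase list, TTTGAA was found in 20.0% and CCAAT in 70.0% of 30 genes. A match of letters is not a site of binding. The stretches below are shown for the 4 compared G2/M genes of lowest ratio whose bases before the start hold both elements. Capitals mark both elements, read on either strand (the reverse complement of the first is TTCAAA and that of the box is ATTGG). None reaches past the gene start, and each begins and ends at most 8 bases beyond its outermost match.
Top2a, chr11:99024199-99024424, minus strand: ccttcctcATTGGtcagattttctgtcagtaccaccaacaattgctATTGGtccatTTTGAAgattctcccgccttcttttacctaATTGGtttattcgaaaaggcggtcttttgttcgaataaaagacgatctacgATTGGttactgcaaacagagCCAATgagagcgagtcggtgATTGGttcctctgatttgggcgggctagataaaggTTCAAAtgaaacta
Ckap2, chr8:22185827-22185928, minus strand: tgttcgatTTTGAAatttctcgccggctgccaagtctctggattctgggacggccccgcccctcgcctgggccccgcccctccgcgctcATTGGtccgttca
Ect2, chr3:27153921-27154000, minus strand: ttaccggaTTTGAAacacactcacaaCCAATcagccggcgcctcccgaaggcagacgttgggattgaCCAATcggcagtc
Ckap5, chr2:91526709-91526739, plus strand: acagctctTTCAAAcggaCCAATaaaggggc

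The ratio of each of these 4 genes was nearer 0 or above it without J150_3 and J151_5. Top2a, the topoisomerase that untangles chromosomes, had 57.8, 570 and 27257 in S-type cells and 1.92, 48.2 and 728 in T-type cells, a log2 ratio of -5.57 that was -1.21 without J150_3 and J151_5. Ckap2, a spindle protein, went from -3.35 to 0.45 without those cells, and Ect2, which sets the cleavage furrow, from -2.29 to 1.39. Ckap5, a microtubule polymerase, went from -1.84 to -1.05. The abundant members of the list behaved otherwise. Tubb4b, Cbx5, Anp32e and Tmpo, which are also expressed outside mitosis, stood at 1.35, 3.00, 0.42 and -0.20. Tubb4b was at 0.64 without J162_16, and J161_9 held 84.2% of the T-type level of Cbx5.

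The abundant S phase genes show how far single cells decide these ratios. Pcna, the polymerase clamp, had 142, 3517 and 45117 in S-type cells and 425, 3731 and 31593 in T-type cells, nearly equal at the median. Its log2 ratio of -0.51 was 0.86 without J151_5 and -1.88 without J165_23. Rrm2, of ribonucleotide reductase, had 9.64, 393 and 22278 in S-type and 0, 26.4 and 7659 in T-type cells, a log2 ratio of -2.31 that turned to 2.38 without J150_3 and J151_5. The helicase subunit Mcm4 stood at 1.65, and at 0.11 without J161_9. Mcm6 stood at -0.74, at -2.83 without J165_23 and at 0.34 without J151_5.

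**Figure D3:**
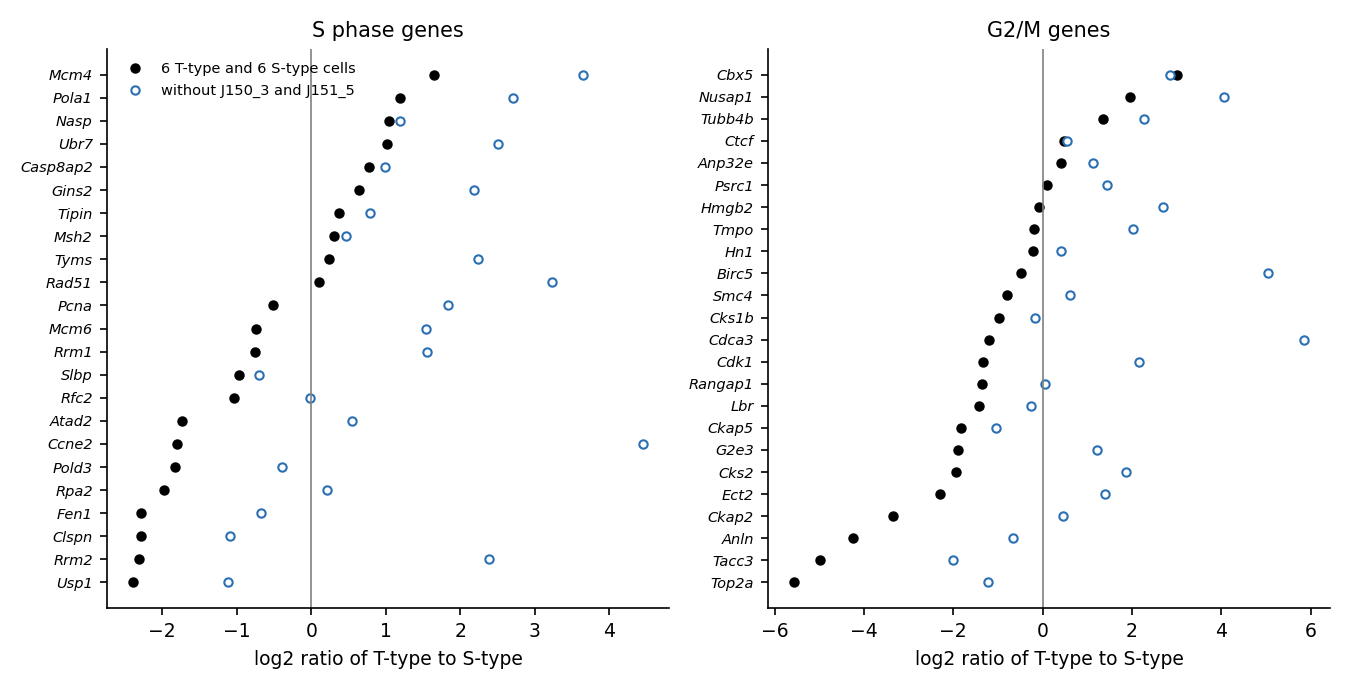
Log2 ratio of T-type to S-type for the 23 compared S phase genes and the 24 compared G2/M genes, with all 12 cells (filled points) and without the S-type cells J150_3 and J151_5 (open points). The open points lie mostly to the right, and 7 S phase and 12 G2/M genes cross from below 0 to above it.

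Genes of the centrosome and the cilium base had 22 of 36 members compared, 11 at least 2-fold lower in T-type cells and 3 at least 2-fold higher, with a median of -0.99. It was -4.04 with the median over the cells and -2.98 with the mean of the log2 values. Without J150_3 and J151_5 the median was -0.05, with 8 lower and 6 higher. The members also have long transcripts, with a median of 5792.5 bases for the longest one. Akap9 and Pcm1, scaffolds around the centrosome, stood at 0.61 and 0.11, and J163_18 held 95.8% of the T-type level of Akap9, which was at -3.70 without it. Of the augmin subunits, which seed microtubules in the spindle, Haus3 stood at -1.84 (1.27 without J150_3 and J151_5) and Haus2 at 1.75, with 98.4% of the T-type level in J163_18 and -3.95 without that cell.

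Regulators of chromatin included large ratios in both directions. Of 30 histone acetylases, deacetylases and their partners, 22 were compared and the median was 0.19. Among them 3 were at least 2-fold higher (13.6%) and 7 at least 2-fold lower (31.8%), against 26.4% and 20.0% of all compared genes. Brd8, a subunit of the NuA4 acetylase, had 46.4, 862 and 10625 in S-type and 0, 107 and 462 in T-type cells, a log2 ratio of -3.94. Hdac2 and Sirt2, deacetylases, stood at 1.61 and 1.02, and at 0.43 without J162_16 and 0.64 without J161_9, respectively. Kat7, the HBO1 acetylase, reached 2.83 with 97.3% of the T-type level in J162_16, and -2.12 without it.

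The study's text names 25 chromatin factors on this comparison, also picked on these cells. Of the 16 compared, 5 were at least 2-fold higher in T-type cells and 11 at least 2-fold lower. Yaf2, Wiz, Paf1, Hmgn3 and Cbx5 were higher, at 3.19, 3.41, 3.99, 2.13 and 3.00. J161_9 was the highest T-type cell of Yaf2, Paf1 and Cbx5, and without it they stood at 0.93, 1.45 and 0.60. Hmgn3 stood at 1.22 without J162_16. Wiz, a partner of the G9a and GLP methyltransferases, had 3.92, 6.84 and 20 in S-type and 0, 126 and 202 in T-type cells, and 4 of the T-type cells lay above every S-type cell. Brpf3, Lrif1, Mtf2, Ncoa3, Mllt10, Npat, L3mbtl2, Brd8, Ehmt1, Whsc1 and Phf21a were lower, from -7.58 (Brpf3) to -3.07 (Phf21a). Lrif1, Mtf2 and Ehmt1 were the ones whose cells did not overlap. Ehmt1, the GLP methyltransferase, had a median of 316 and a highest level of 1021 in S-type cells, and 0, 21.2 and 104 in T-type cells. Of 14 further transcription and methylation genes of that text, 6 were compared: Zeb1, Sox9 and Atf5 stood at 4.01, 3.05 and 3.23, and Rngtt, Hivep1 and Nfyb at -3.95, -5.09 and -4.70. J162_16 held 88.8%, 77.2% and 76.8% of the T-type levels of Zeb1, Sox9 and Atf5, which stood at 1.12, 1.18 and 1.38 without it.

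The calcium lists had medians between -0.27 and 0.30, the lowest for plasma membrane channels and extruders, with large ratios for single members. Of 21 genes of ER calcium release, uptake and store-operated entry, 9 were compared, 1 was at least 2-fold higher, 2 at least 2-fold lower and the median was 0.00. Atp2a2, the SERCA2 pump, had 586, 3500 and 27636 in T-type and 1821, 4925 and 9772 in S-type cells, a log2 ratio of 0.39 that was -0.75 without J161_9. Hspa5 and Calr, which bind calcium in the ER, stood at 0.43 and 0.00, and Tmem66, which restrains store-operated entry, at 0.86. Stim2, the sensor of small changes in ER calcium, was among the lower ones, with 123, 744 and 1777 in S-type and 0, 13.7 and 266 in T-type cells and a log2 ratio of -3.49. Itpr1, the inositol trisphosphate receptor, had 483, 1827 and 4824 against 3.63, 24.2 and 2776 and a log2 ratio of -1.74. It is named after its values were seen. Orai1 and Orai2 could not be compared: both had a read in all 6 S-type and in 3 T-type cells.

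Plasma membrane channels and extruders had 14 of 32 genes compared. Of these, 3 were at least 2-fold higher (21.4%) and 5 at least 2-fold lower (35.7%), against 26.4% and 20.0% of all compared genes. The median was -0.27, against 0.20 for all genes. It was -1.73 with the median over the cells and -1.85 with the mean of the log2 values, against -0.40 and -0.88 for all genes. The list took 0.0283% to 0.118% of the reads of a T-type cell (median 0.0543%). In S-type cells it took 0.0929% to 0.158% (median 0.119%), so the types overlapped, with the highest T-type share in J163_18. NR cells ran from 0.036% to 0.135%. Atp2b1, the main calcium pump of the plasma membrane, had 2522, 4270 and 12103 in S-type and 12.8, 1386 and 5636 in T-type cells. Its log2 ratio of -1.58 stayed between -2.38 and -1.17 when each cell was left out. Slc8a1, the sodium-calcium exchanger, had 80, 347 and 4469 in S-type and 0, 48.5 and 237 in T-type cells, a log2 ratio of -4.10. Cacnb3, a calcium channel subunit, stood at -3.63, and at 0.37 without J150_3 and J151_5. Pkd2 and Atp2b4 stood at 0.36 (-0.79 without J163_18) and -0.35, and Trpm7 at 1.14 with -0.70 without J162_16. Stim2, Slc8a1, Cacnb3 and Vdac1 are the genes of calcium release and entry in the study's text that could be compared, 4 of 9, and 5 were not.

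On the mitochondrial side, Vdac1, the outer membrane channel, was higher in T-type cells, with 2988, 4083 and 26141 against 1948, 2469 and 3251 and a log2 ratio of 1.77, which was 1.02 without J162_16. Vdac3 stood at 0.95, Vdac2 at 0.24 and 1500032L24Rik at 0.41, and the list of 11 compared genes had a median of 0.24. Of the receptors and effectors upstream of release, 12 of 34 were compared, with a median of 0.30. Ednrb, the endothelin receptor, was level at -0.08, with 1986, 8784 and 18209 against 2720, 9582 and 21138. F2r, the thrombin receptor, stood at 0.27 and Gnaq, the alpha subunit of Gq, at 1.07 with -0.29 without J162_16. Rgs2, which turns Gq off, stood at 2.14, and at 0.10 without that cell.

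Of the calcium-binding genes, 26 of 33 were compared, 6 were at least 2-fold higher, 5 at least 2-fold lower and the median was 0.29. Their shares past 2-fold, 23.1% and 19.2%, were near the 26.4% and 20.0% of all compared genes. Calm2, which encodes calmodulin, had 3289, 17381 and 34188 in T-type and 11807, 17103 and 59487 in S-type cells, a log2 ratio of -0.35. Anxa5 stood at 0.95. Anxa1 stood at 3.57 but at -1.16 with the median over the cells, with 72477 in J166_25, 70128 in J162_16 and at most 371 in the other T-type cells.

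**Figure D4:**
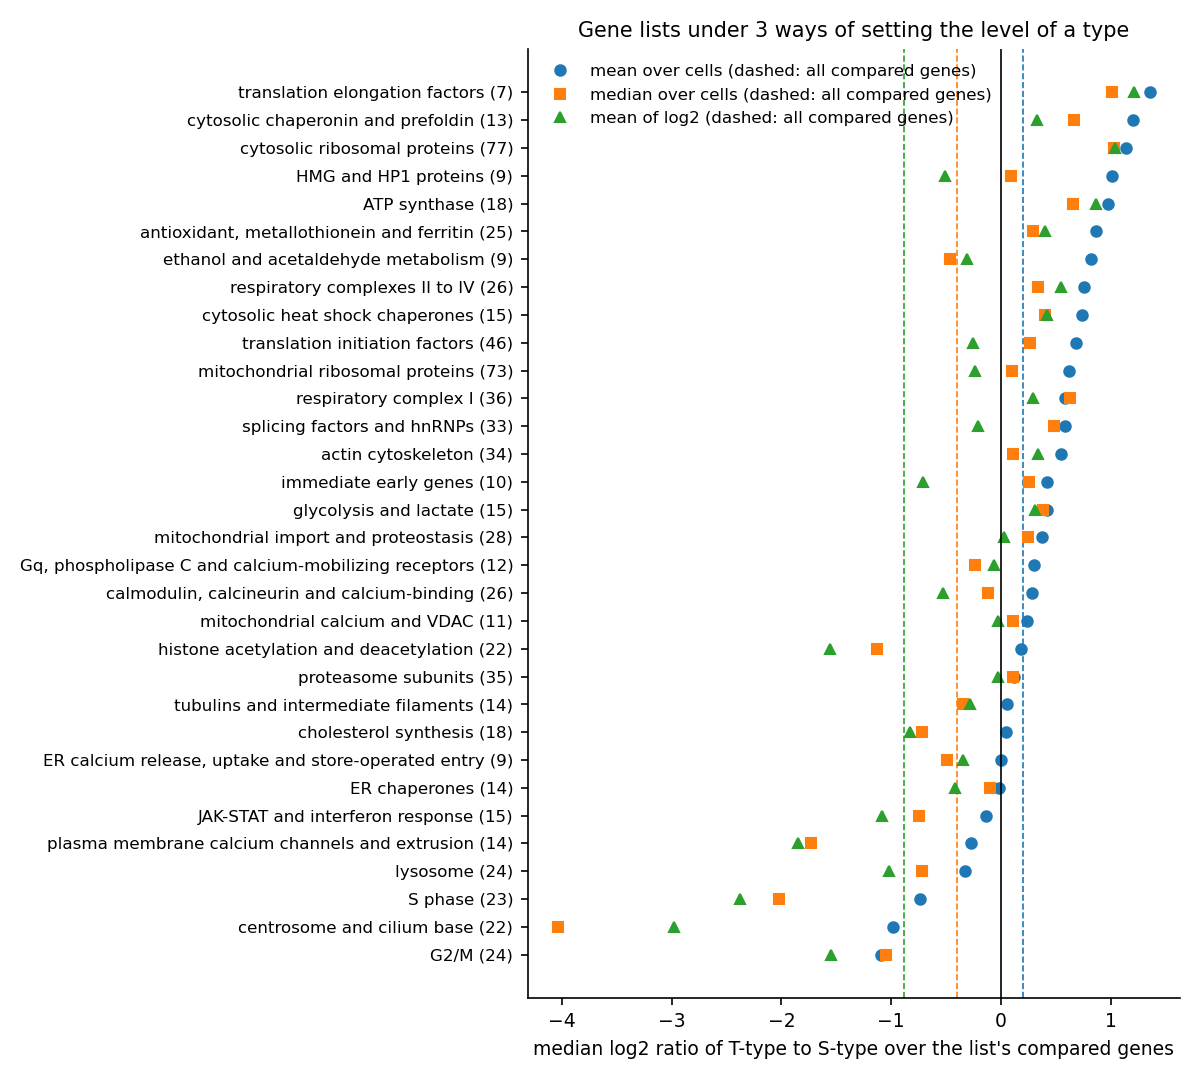
Median log2 ratio of T-type to S-type over the compared genes of each function list (number of genes in parentheses), with the level of a type set as the mean over its cells, the median over its cells or the mean of log2(normalized count + 1). Dashed lines mark the median of all 7378 genes under each definition, 0.20, -0.40 and -0.88. Ribosomal proteins, elongation factors and ATP synthase are among the lists that stay above 0 under all 3 definitions, as complex I and the heat shock chaperones also do. The centrosome list lies lowest under the last 2.

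Other lists differed less or less evenly. Actin genes had 11 of 34 at least 2-fold higher (32.4%, against 26.4% of all compared genes) and 3 lower (8.82%, against 20.0%). Their median was 0.54. Tmsb4x, which binds actin monomers, stood at 2.49, and at 0.95 without J162_16, while Actb, Acta2 and Cald1 stood at 0.35, 0.47 and 0.13. Lysosomal genes had 3 of 24 at least 2-fold higher and 2 lower with a median of -0.33. Of the cathepsins, Ctsl had 17129, 19984 and 25275 in S-type and 2269, 11636 and 39069 in T-type cells, a log2 ratio of -0.25, and Ctsb stood at -0.41. Lamp1 and Cd63 stood at 0.19 and 1.34, and at -0.22 and 0.30 without J162_16. Glycolysis, mitochondrial import, tubulins, cholesterol synthesis, splicing factors, immediate early genes and the JAK-STAT list had medians of 0.42, 0.37, 0.06, 0.04, 0.58, 0.42 and -0.14. HMG and HP1 proteins had a median of 1.01 that turned to -0.51 with the mean of the log2 values. Of the 16 genes of inflammation and calcium regulation in the study's text, 5 could be compared: G6pdx and Hmgb1 stood at 3.67 and 2.91 (2.19 and 0.70 without J162_16), and Jak2, Grk6 and Scamp5 at -2.87, -4.08 and -2.0.

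Markers were checked for other cell types. Astrocyte markers summed to 2298 to 10013 CPM in T-type and 2854 to 13513 in S-type cells. Of 20, 18 were compared, 2 were at least 2-fold higher, 5 lower and the median was 0.06. Microglia markers summed to 9.8 to 142 in T-type and 0.561 to 213 in S-type cells, with Tmem119 at 0 in both types and 9 of the 20 at 0 in S-type cells. Oligodendrocyte lineage markers reached 3329 in the T-type cell J163_18 and 899 in S-type cells, with Sox10, Gpr17, Mog and Mobp at 0 in both. For neuron markers the range was 38.1 to 431 in T-type cells against 58.3 to 2076 in S-type cells. Endothelial markers had 0.457 to 897 against 49.8 to 949, mural and fibroblast markers 95.4 to 4710 against 206 to 7450, and ependymal markers 6.81 to 316 against 39.2 to 170. Of the mural and fibroblast markers only Acta2, also in the actin list, was compared. Its highest levels were 103133 in the T-type cell J161_9 and 72979 in the S-type cell J155_9. Rgs5 and Kcnj8 of that list had 0 reads in both types. The part of these lists in the results above was not tested.

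Of 3 immune transcripts looked at, which are also in the microglia list, none passed the filter. The study's text names Ly86 and Mpeg1 as higher in T-type cells, a direction found on these cells. It also reports them mainly in a cluster of cultured astrocytes from another published data set, which was not analysed here. Laptm5, a lysosomal protein of blood and microglial cells, had 0 reads in the S-type cells and 50, 657 and 346 in the T-type cells J161_9, J162_16 and J164_19, with 0 in the other 3. Against the limit that 0 reads allow, taken as 3 reads over the 6 S-type cells, it was at least 1277-fold higher in T-type cells, or 10.32 on the log2 scale. J162_16 had most of these reads, and without it that bound was 8.45 on the log2 scale. Ly86 had 132 reads in 2 T-type cells and 2 reads in S-type cells, a log2 ratio of 7.33 with a counting interval of 5.45 to 10.39. Mpeg1 had 496 reads in the same 2 cells and 15 reads over 4 S-type cells, a log2 ratio of 6.41. In NR cells Laptm5 reached 1240 reads and Mpeg1 1615, both in J186_5. Between the types, Tmem119 was at 0 in both, and the microglia markers Csf1r, C1qa and Trem2 had 91, 30 and 6 reads in T-type and 0 in S-type cells.

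The ratio also varied with the level and the length of the transcript. Among the 1476 genes of lowest mean level the median log2 ratio was -0.13, and among the 1476 of highest mean level it was 0.745, where 39.8% of genes were at least 2-fold higher and 6.57% lower. By the longest annotated transcript, the 1401 shortest genes (up to 1984 bases) had a median of 0.55 and the 1399 longest (from 5496 bases) -0.11. With the median over the cells the corresponding values were -0.96 and 0.28 by level and 0.16 and -0.96 by length. Across genes, Spearman's rho of the ratio was 0.24 with the level (n = 7378) and -0.17 with the length (n = 6997), as a description, since the genes share the same 12 libraries. Ribosomal protein genes have a median transcript of 1094 bases and lie at high levels. The part of level and length in the list medians was not tested.

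**Figure D5:**
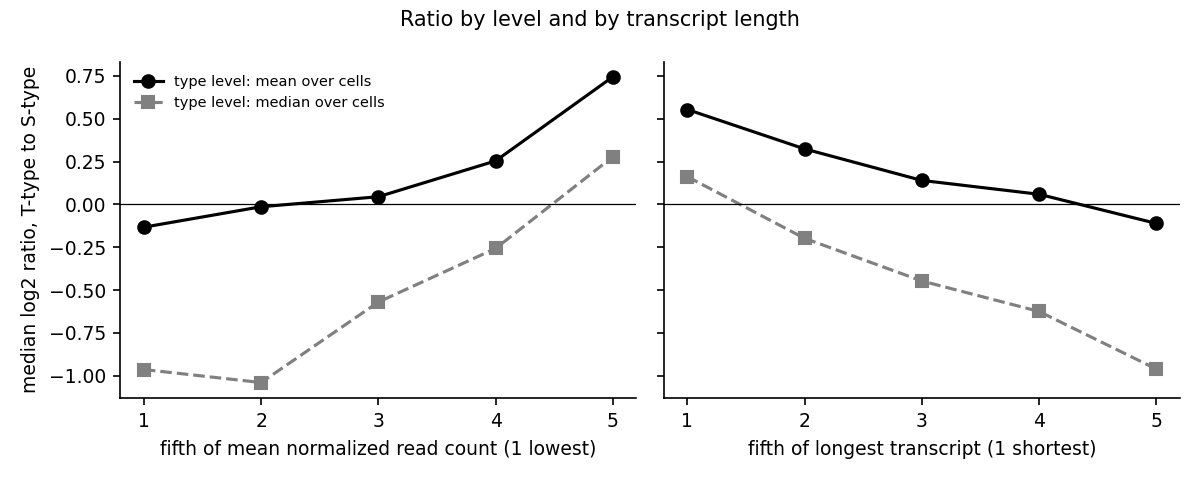
Median log2 ratio of T-type to S-type in 5 equal bins of the compared genes by mean normalized read count (left) and by longest annotated transcript (right), with the level of a type as the mean over its cells (filled circles) or the median over its cells (grey squares). The ratio is highest for abundant genes and for short transcripts under both definitions.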

How the data were processed

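RNA of 22 single astrocytes was sequenced after 2 rounds of linear amplification, with stranded paired-end libraries, 12 to a lane; the lane of a cell is not given in the sources used here, and no molecular identifiers were used. The authors trimmed reads (Phred under 20, polyA, adapters), aligned them with STAR to GRCm38 and counted uniquely aligned exonic reads with VERSE; the submitters' processing notes name STAR and HTSeq. The authors deposited raw counts of exonic reads per gene symbol (23453 symbols, of which 17479 had a read). Use of strand in the counting is not given in the sources used here.

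Cells were grouped by the response type in their labels (6 T-type, 6 S-type, 5 M-type, 5 NR). Each cell's counts were scaled by a median-of-ratios factor from the 3670 genes with a read in all 22 cells, and genes with a read in at least 10 of the 12 T-type and S-type cells were compared. The level of a type is the mean of its cells. Where a type had no read, its limit was taken as 3 reads over its cells. A gene is counted as higher or lower from 2-fold, and cells do not overlap when all 6 of one type lie beyond all 6 of the other. Counting intervals are exact binomial (95%) and, like the limit for 0 reads, cover counting error only. As no animal or culture is named for a cell, no p-value was computed between types.

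Named genes were the 10 of largest ratio per direction among non-overlapping genes with a mean level of at least 50, up to 4 members of highest mean level per list, and genes the study's text names on this comparison. Laptm5, also chosen with earlier results known, is not in that text, and Rpl13a, Rpl36a, Rps7, Rps15a, Cep250, Npc1, Itpr1, Top2a, Ckap2, Ect2 and Ckap5 are named after their values were seen. Members and lists were chosen with earlier results of these data known. Alternatives were TMM factors (edgeR 4.0.16), size factors of the 12 cells, reads per 1000000 (CPM), thinning to the smallest library, other level definitions (pseudocount 1), other filters and leaving out cells. The ratio and fold counts were tested on simulated data. Gene positions, lengths and promoter windows came from GRCm38 annotation and RefSeq (GRCm38.p6). Python 3.11.15, NumPy 2.4.6, pandas 2.3.3, SciPy 1.17.1 and R 4.3.3 were used. The 45 gene lists cover function lists, cell type markers and lists from the study's text. Some named genes are not reported here.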

Additional observations from a re-analysis of the deposited data

Results flagged for a closer look

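The share of reads on a list was looked at in 82 groups of 6 cells. In 12 of them 1 cell stood apart by Dixon's criterion for a gap over the range. Its rate of about 1 group in 20 by chance assumes normal values, which was not tested, so the 12 are not set against chance. The study's chromatin list (1.1% in J161_9) and its methylation and transcription list (0.596% in J162_16) are not among the 12. Among T-type cells, J165_23 gave 1.44% of its reads to proteasome subunits (others 0.411% to 0.756%) and 1.03% to S phase genes (others 0.0306% to 0.162%). J166_25 gave 0.282% to ethanol and acetaldehyde metabolism (others 0.0246% to 0.0894%) and 1.37% to calmodulin, calcineurin and other calcium-binding genes (others 0.213% to 0.595%). J162_16 gave 0.358% to Gq, phospholipase C and calcium-mobilizing receptors (others 0.185% to 0.242%), and J163_18 gave 0.0897% to endothelial markers (others up to 0.0334%). Among S-type cells, J153_6 gave 0.479% to mitochondrial import and proteostasis (others 0.368% to 0.405%), and J154_8 gave 1.35% to astrocyte markers (others 0.285% to 0.642%). J150_3 gave 0.0213% to microglia markers (others up to 0.00608%) and 0.0949% to endothelial markers (others 0.00498% to 0.0253%). J151_5 gave 0.208% to neuron markers (others 0.00583% to 0.0626%), and J155_9 gave 0.745% to mural and fibroblast markers (others 0.0206% to 0.179%). Acta2, also in the actin list, was the only mural and fibroblast marker compared. Its level was 72979 in J155_9 against 1465 to 25145 in the other S-type cells.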

How the results depend on the processing

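The genes at least 2-fold higher and lower (1947 and 1475) numbered 1010 and 1956 with CPM, 1042 and 2711 with the median over the cells, 757 and 3478 with the mean of log2, 1153 and 481 with a read in all 12 cells, 1435 and 652 with 10 reads in 10 cells and 3301 and 4097 with the study's filter. Leaving out each cell gave 1567 to 2098 and 1321 to 1780. The non-overlapping genes (16 above and 34 below) numbered 7 and 35 with TMM factors, 2 and 55 with CPM, 10 and 20 thinned, 16 and 7 with a read in all 12 cells, 16 and 12 with 10 reads, 16 and 82 with the study's filter, and 16 to 32 and 41 to 88 leaving out each cell. Without J150_3 and J151_5, the S-type cells with the highest shares on the cell-cycle lists, they were 49 and 112. Without J162_16 and J163_18, chosen after seeing the data, they were 52 and 112. Such counts rise since fewer cells overlap less often.

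The ribosomal protein median was 0.60 with CPM (0.95 to 1.32 leaving out each cell). The ATP synthase median was 0.46 with CPM, 0.66 with the median over the cells, 0.65 without J162_16 and J163_18 and 0.59 to 1.15 leaving out each cell. The G2/M median was 1.17 without J150_3 and J151_5 and -1.38 to 0.31 leaving out each cell, above 0 without J150_3. The centrosome median was -4.04 with the median over the cells, -2.98 with the mean of log2, -2.56 without J162_16 and J163_18 and -2.28 to -0.61 leaving out each cell. The HMG and HP1 median was -0.51 with the mean of log2. Of the study's lists, inflammation was at 0.24 thinned and 0.46 with either stricter filter, mitochondrial function at -3.13 with the study's filter, and chromatin at 3.10 with a read in all 12 cells and 2.57 with 10 reads, where fewer or more genes enter.

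Of 115 named genes at least 2-fold apart, 16 turned direction under some alternative, as follows. Of 39 under 2-fold, 21 changed sign without 1 of the cells. With the median over the cells, Aldh1a1 was at -0.47, Anxa1 -1.16, Haus2 -4.53, Kat7 -1.03, Rps4x -0.42 and Trpm7 -1.68. With the mean of log2, Aldh1a1 was at -0.30, Haus2 -2.77, Kat7 -1.14, Mrpl9 -0.40, Paf1 -0.23 and Trpm7 -1.18. Trpm7 was at -0.18 with CPM. Without J150_3 and J151_5, Cacnb3 was at 0.37, Haus3 1.27 and Rrm2 2.38. Without J162_16 and J163_18, Cct4 was at -0.0024, Gnaq -0.44, Haus2 -3.70, Kat7 -1.79, Mrpl9 -0.50, Prdx1 -0.022, Rps4x -0.23, Sdha -0.64, Trpm7 -0.40 and Zeb1 -0.36. Leaving out each cell, the range was -0.020 to 3.87 for Cct4, -0.29 to 1.52 for Gnaq, -3.95 to 3.72 for Haus2, -2.12 to 3.62 for Kat7, -0.82 to 4.77 for Mrpl9, -0.34 to 1.53 for Rps4x and -0.70 to 1.40 for Trpm7. The cause was not tested. No paired analysis was possible because the labels do not name the animal, culture or collection time of a cell. Some cell titles share a suffix, such as J156_16 with J162_16 and J155_9 with J161_9, which the labels do not describe as a replicate number. The depth of J163_18 (2937786 reads) and the symbols read in J162_16 (6319) limit what a T-type level near 0 shows.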
